A study of Mus musculus with 6 samples.

Results

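A set of 10 keratin genes of the hair follicle, the infundibulum and stressed epidermis was followed in tail keratinocytes, in libraries labelled as epidermal Gpr161 knockout and as control. They were taken by gene symbol from the deposited count table: Krt15, Krt19 and Krt24 as bulge keratins, Krt75 as a companion layer keratin, Krt79 as an infundibular keratin, Krt6a, Krt6b, Krt16 and Krt17 as stress keratins, and Krt23 apart. All 10 were among the 51 keratins and 19618 genes in the table, and all 10 passed the filter on low counts that left 45 keratins and 15422 genes to test. The knockout group held 3 libraries from mice with K14cre and 2 floxed Gpr161 alleles (K14cre+, Gpr161Flox-Homozygous). The control group held 3 libraries without K14cre in their labels, 1 from a Gpr161Flox-Homozygous mouse and 2 from Gpr161Flox-Heterozygous mice. Mice were 4 months old; strain and sex are not in the labels. K14cre drives Cre recombinase from a keratin 14 promoter, which is active in the basal epidermis and the outer layers of the follicle. No control was labelled as carrying it, so an effect of the transgene and an effect of the deletion cannot be told apart. Libraries are called by the tag in their column name, with DE689, DE684 and DE680 in the control group and DE688, DE685 and DE679 in the knockout group; the tags do not show which control was homozygous. The labels do not state that each library is a separate animal, so the p-values measure the spread between these libraries.

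Keratins are the intermediate filament proteins of epithelia. A filament needs a type I and a type II keratin, and the pairs change with the position of the cell, so keratin transcripts are widely used to mark compartments of the skin. Krt15 marks the basal layer and the bulge, where follicle stem cells reside. Krt75 marks the companion layer between the inner and outer root sheaths, and Krt79 the infundibulum, the funnel through which the hair leaves the skin. Krt6a, Krt6b, Krt16 and Krt17 are present in parts of the follicle and are induced in the epidermis between follicles after wounding. Krt6a, Krt6b, Krt75 and Krt79 are type II keratins and lie on mouse chromosome 15, whereas Krt15, Krt16, Krt17, Krt19, Krt23 and Krt24 are type I keratins and lie on chromosome 11.

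Total estimated counts per library ranged from 17157864 to 25344399. Gpr161 counts did not separate the groups (28.8 ± 4.23 CPM in the knockout, 31.4 ± 1.103 in the control; SD, n = 3 each; log2 fold change -0.13, edgeR adjusted p 0.553), so they do not check the labels. CPM here is a count divided by the library's effective size, its total corrected for composition by TMM scaling. The Hedgehog targets Gli1 (69.4 ± 4.42 against 9.15 ± 0.857 CPM) and Ptch1 (111.2 ± 14.01 against 37.1 ± 5.35 CPM) were higher in the libraries labelled knockout. Keratinocyte markers were abundant in every library, with Krt5 at 11196 to 15700.2 CPM and Krt14 at 8847 to 11469.9 CPM. Summed levels of 6 fibroblast markers were 129.0 to 142 CPM in the knockout and 37.4 to 79.1 CPM in the control, and those of 6 melanocyte markers were 76.2 to 113 and 53.4 to 75.6 CPM; none of these markers was at 0 in all libraries. Both sums were separated between the groups. Of the 5 fibroblast markers tested, 2 had a positive and 3 a negative log2 fold change (median -0.38), and 1 passed the threshold used throughout, an edgeR adjusted p under 0.05. It was Dcn, which encodes the matrix proteoglycan decorin and is named here after its values were seen (119 ± 6.19 against 31.9 ± 10.1 CPM, log2 fold change 1.90, edgeR adjusted p 0.00782). All 6 melanocyte markers had a positive log2 fold change (median 0.54), and 0 passed the threshold in edgeR, with 3 at an unadjusted p under 0.05. Dcn made up most of the fibroblast sum in the knockout. Whether either sum reflects the number of such cells, and the part of these cells in the keratin results, was not tested. Y-linked transcripts were found in DE685 of the knockout and DE684 of the control.

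None of the 10 keratins changed past the threshold in the edgeR quasi-likelihood test, an adjusted p under 0.05 by Benjamini-Hochberg over all 15422 genes, which 1.60% of the genes tested passed (1.24% as higher). At an unadjusted p under 0.05 there were 2 of 10, Krt15 and Krt17, both higher in the knockout, against 19.0% of all genes tested, or 9.90% in that direction. Those 2 were also the keratins whose groups did not overlap in CPM, against 25.6% of all genes, or 12.8% with the knockout above. Set against the shares in either direction, 2 of 10 is near the background. It is above the shares of 9.90% and 12.8% in the direction seen, on 10 genes and with no test of the list. The log2 fold changes of the 10 had a median of 0.16, with 8 above and 2 below 0, and the median of all genes tested was -0.0036. DESeq2 was run on these counts as an alternative, with its Wald test. It called 2 of the 10, Krt15 (adjusted p 0.00313) and Krt17 (adjusted p 0.00752). Over all genes it called 879 of 15422, against 247 in edgeR. In limma-voom 0 of the 10 passed and 3 had an unadjusted p under 0.05, as had 3003 of the 15422 genes.

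**Figure D1:**
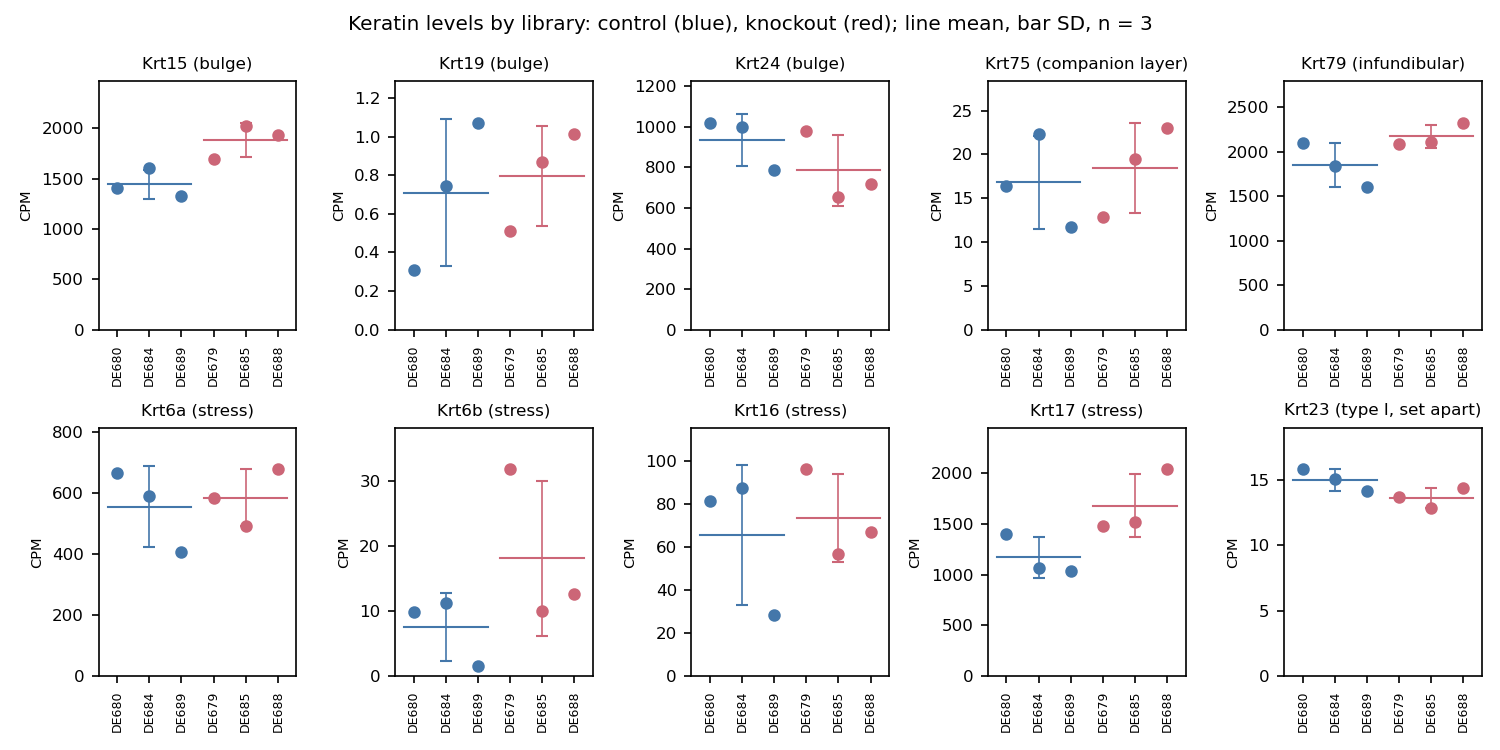
CPM of each keratin (linear axes from 0) in the 3 control libraries (blue) and the 3 knockout libraries (red), with the group mean as a line and the SD as a bar. The red points lie above all blue points for Krt15 and Krt17, and DE689 is the lowest library for 7 of the 10 keratins.

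Among the bulge keratins, every knockout library was above every control for Krt15, the groups overlapped for Krt24 and Krt19, and none of the 3 passed the threshold. Krt15 (chromosome 11, 100131758 to 100135928, minus strand, GRCm38) had 1936 CPM in DE688, 2018 in DE685 and 1689 in DE679. In the control it had 1324 CPM in DE689, 1600.2 in DE684 and 1404 in DE680. The lowest knockout library thus lay just above the highest control library. The means were 1881 ± 171 and 1443 ± 142 CPM (SD, n = 3 each), which is 0.38 on the log2 scale (SE 0.10, edgeR adjusted p 0.104). As a fold this is 1.30, with a 95% interval of 1.12 to 1.52. With a term for the Y-linked signal of the libraries, the Krt15 difference passed in edgeR (log2 fold change 0.39, adjusted p 0.0337), and Krt15 was then the single keratin of the list to pass. That fit called more genes in all, 409 against 247 without the term.

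Krt24 (chromosome 11, 99279959 to 99285262), a type I keratin, had 720.4 CPM in DE688, 654 in DE685 and 982 in DE679, against 786 in DE689, 998 in DE684 and 1020.2 in DE680. DE685 and DE688 were below every control, whereas DE679 was among the controls. The change was -0.25 on the log2 scale (SE 0.16, edgeR adjusted p 0.439), and the interval of the fold, 0.647 to 1.09, includes no change. It was -0.44 without DE679 (edgeR adjusted p 0.280) and -0.14 without DE685 (edgeR adjusted p 0.688). Krt19 (chromosome 11, 100140810 to 100148665), a keratin of simple epithelia that also marks the bulge, was barely detected, with 7 to 27 counts per library. Its levels were 1.01 CPM in DE688, 0.866 in DE685 and 0.509 in DE679, against 1.07 in DE689, 0.746 in DE684 and 0.311 in DE680. The highest and the lowest Krt19 library were both controls. At this depth, where 3 counts are 0.117 to 0.173 CPM, a Krt19 fold from 0.504 to 2.45 lay within the 95% interval. In the bulge group, 1 of 3 keratins had an unadjusted p under 0.05 in edgeR, against 19.0% of all genes tested, or 9.90% as higher. After adjustment 0 passed, against 1.60%, and 3 genes are too few to compare with these shares. The median log2 fold change of the 3 was 0.15.

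Other bulge genes, not keratins, were read from the same fit. Of 12 tested, 3 were higher past the threshold, against 1.24% of all genes tested, and 0 lower. The log2 fold change was above 0 for 10 and below 0 for 2, with a median of 0.49. The list was chosen with earlier results of these data known, so its share is not a test against all genes. Nfatc1, a transcription factor of quiescent bulge cells, had 208 ± 29.3 against 107.9 ± 5.21 CPM (log2 fold change 0.95, SE 0.10, edgeR adjusted p 0.00771). Foxc1, another bulge transcription factor, had 89.4 ± 7.46 against 56.2 ± 5.55 CPM (log2 fold change 0.67, SE 0.09, edgeR adjusted p 0.0186). Whether these genes differed from Krt15 in their change was not tested. In bulk RNA, more cells of a type and more RNA per cell cannot be told apart.

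The companion layer keratin Krt75 (chromosome 15, 101563345 to 101573904) was low and did not separate the groups. It had 23.0 CPM in DE688, 19.5 in DE685 and 12.9 in DE679, against 11.7 in DE689, 22.3 in DE684 and 16.4 in DE680. Each group held both high and low libraries, and the highest was 1.78 times the lowest in the knockout and 1.91 times in the control. The log2 fold change was 0.14 (SE 0.27, edgeR adjusted p 0.821), and the 95% interval of the fold ran from 0.712 to 1.70. Of 10 other companion and inner root sheath genes, 7 could be tested, with a median log2 fold change of 0.0029. In edgeR 0 passed the threshold, against 1.60% of all genes tested, and 0 had an unadjusted p under 0.05, against 19.0%. With 7 genes tested, 0 past the threshold is near the share of all genes. Most genes of this list belong to the inner root sheath, so it does not describe the companion layer alone.

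The infundibular keratin Krt79 (chromosome 15, 101929332 to 101940324) was abundant in all libraries. It had 2326 CPM in DE688, 2111 in DE685 and 2085 in DE679, against 1603 in DE689, 1843 in DE684 and 2098 in DE680. A single control, DE680, reached into the range of the knockout. The log2 fold change was 0.23 (SE 0.10, edgeR adjusted p 0.270), with a 95% interval of the fold from 0.997 to 1.39. Without DE680 the groups did not overlap, as for 38.5% of all genes tested, and the change was 0.33 (edgeR adjusted p 0.163). It was 0.14 without DE689 (edgeR adjusted p 0.480) and 0.18 without DE688 (edgeR adjusted p 0.533), and per Krt5 and Krt14 counts it was 0.11, with no test. Other genes of the upper follicle were read from the same fit. All 7 tested had a positive log2 fold change, as had 7608 of the 15422 genes, with a median of 0.82, and 2 passed the threshold as higher, against 1.24% of all genes. This list too was chosen with earlier results of these data known, so these shares do not test it against all genes. Plet1, a surface marker of the junctional zone below the infundibulum, had 110.2 ± 0.468 against 62.3 ± 2.21 CPM (log2 fold change 0.82, SE 0.05, edgeR adjusted p 0.00137). Defb6, a beta-defensin, had 269 ± 12.5 against 149.8 ± 34.2 CPM (log2 fold change 0.85, SE 0.15, edgeR adjusted p 0.0443).

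Among the stress keratins, Krt17 was separated between the groups and Krt6a, Krt6b and Krt16 overlapped. Krt17 (chromosome 11, 100256217 to 100261029), a type I keratin of follicle and wound epidermis, had 2039 CPM in DE688, 1516 in DE685 and 1484 in DE679. In the control it had 1039 CPM in DE689, 1071 in DE684 and 1405 in DE680. The knockout library DE688 stood well above the rest, and DE679 and DE680 were close. The means were 1679 ± 312 and 1172 ± 202 CPM, which is 0.52 on the log2 scale (SE 0.16, edgeR adjusted p 0.146). The fold was 1.43, with a 95% interval of 1.11 to 1.85. Without DE688 the change was 0.36 (edgeR adjusted p 0.338).

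Krt6a (chromosome 15, 101689910 to 101694307), a type II keratin that pairs with Krt16 or Krt17, had 679 CPM in DE688, 492 in DE685 and 585 in DE679. In the control it had 408 CPM in DE689, 592 in DE684 and 668 in DE680. The lowest library was a control and the others were interleaved. The log2 fold change was 0.07 (SE 0.19, edgeR adjusted p 0.867), and the interval of the fold was 0.781 to 1.42. Krt16 (chromosome 11, 100246091 to 100248902), the type I partner of Krt6a in wounded skin, had 67.2 CPM in DE688, 56.8 in DE685 and 96.0 in DE679. Its control values were 28.3 CPM in DE689, 87.3 in DE684 and 81.1 in DE680. DE689 alone was far below the others. The log2 fold change was 0.16 (SE 0.39, edgeR adjusted p 0.856), with a fold interval of 0.602 to 2.09, and without DE689 it was -0.20 (edgeR adjusted p 0.682).

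Krt6b (chromosome 15, 101676023 to 101680287), a near copy of Krt6a, had the largest fitted change of the 10 keratins and the widest interval. It had 12.6 CPM in DE688, 9.94 in DE685 and 31.8 in DE679, against 1.59 in DE689, 11.3 in DE684 and 9.80 in DE680. The 4 other libraries lay close together, with DE679 above and DE689 below them, a span of 20.02 times. The log2 fold change was 1.27 (SE 0.67, edgeR adjusted p 0.341), with a fold interval of 0.826 to 7.06. Without DE679 it was 0.59 (edgeR adjusted p 0.767), and without DE689 it was 0.79 (edgeR adjusted p 0.480).

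**Figure D2:**
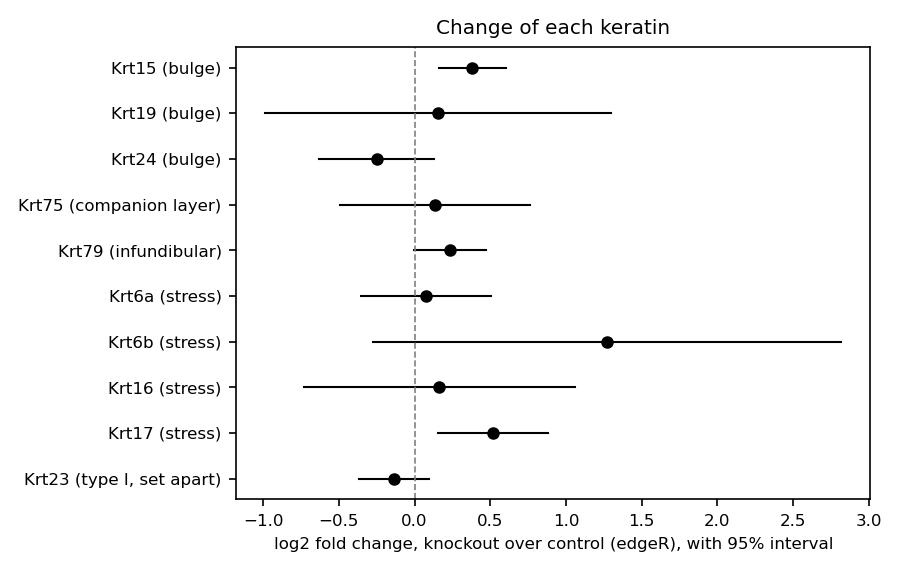
Log2 fold change of each keratin, knockout over control, on a linear axis, with points for the edgeR estimate and lines for its 95% interval. The intervals of Krt15 and Krt17 lie above 0, those of the other 8 keratins include 0, and Krt6b has the widest.

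Krt6a and Krt6b are near-identical over much of their length, so reads from one can be counted for the other, and their sequences show where they can be told apart. In GENCODE M21 (GRCm38), the coding parts of exons 1 to 8 have the same length in both genes and differ at 32 of 1426 bases (97.8% identical). The differences are unevenly spread, and exon 4, the least alike, is shown with exon 6, which differs at a single base; both are on the minus strand of chromosome 15 and read 5′ to 3′, with capitals for bases that differ between the 2 genes. Exon 4 is at chr15:101692481-101692576 in Krt6a and chr15:101678300-101678395 in Krt6b, and exon 6 at chr15:101691646-101691771 and chr15:101677467-101677592.
Krt6a exon 4: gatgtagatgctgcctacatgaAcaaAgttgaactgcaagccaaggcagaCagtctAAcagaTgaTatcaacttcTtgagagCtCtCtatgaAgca
Krt6b exon 4: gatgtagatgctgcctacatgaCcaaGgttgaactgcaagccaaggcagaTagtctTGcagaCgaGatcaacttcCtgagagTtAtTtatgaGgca
Krt6a exon 6: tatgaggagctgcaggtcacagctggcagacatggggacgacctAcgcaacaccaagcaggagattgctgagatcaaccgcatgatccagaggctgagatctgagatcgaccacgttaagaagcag
Krt6b exon 6: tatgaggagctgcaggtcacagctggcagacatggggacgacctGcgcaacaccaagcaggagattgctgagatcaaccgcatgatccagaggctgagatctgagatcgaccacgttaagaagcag
A read inside exon 5 or exon 8 cannot tell the genes apart, since their coding parts are identical there (165 and 35 bases), whereas exon 4 offers 12 differing bases in 96.

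How much of each keratin can be assigned was then counted over the longest protein-coding transcript. Transcripts of other genes were searched on both strands, so genes on the opposite strand count as sharing. Of all stretches of 50 bases, 62.0% in Krt6a, 50.1% in Krt6b and 37.6% in Krt16 also occurred in a transcript of another gene. For stretches of 100 bases the shares were 47.5%, 30.6% and 24.3%. Krt6a and Krt6b shared most with each other, and Krt16 with the annotated gene Gm11597 (25.2% of its 50-base stretches) and with Krt14 (12.4%). The share was 4.0% in Krt17, 2.49% in Krt75, 0.67% in Krt15 and 0 in Krt19, Krt23, Krt24 and Krt79. That of Krt75 was with Gm44460, an annotated gene on the opposite strand. The estimated counts of Krt19, Krt23 and Krt24 were whole as deposited, with no tolerance, in all 6 libraries and those of Krt6a, Krt6b, Krt15, Krt16 and Krt17 in none. Krt75 was whole in 5 libraries and Krt79 in 1 although it shares no stretch of 50 bases with another annotated transcript. Krt5 and Krt14 were whole in all 6 libraries although they share 12.2% and 14.4% of such stretches. Whole counts thus did not follow the shared sequence throughout. Counts of Krt6a, Krt6b and Krt16 are thus uncertain to the extent that the authors' counting split shared reads. The shares include annotated genes on the opposite strand that overlap exons of Krt6a, Krt6b and Krt75. Whether counting used the strand is not given in the sources used here.

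Krt6b made up 5.15% of the joint Krt6a and Krt6b count in DE679, 0.383% in DE689 and 1.45% to 1.98% in the other 4 libraries. Taken as 1 gene, Krt6a and Krt6b had 691 CPM in DE688, 501 in DE685 and 617 in DE679, against 410.0 in DE689, 603 in DE684 and 678 in DE680. DE688 was highest and DE689 lowest, as for Krt6a alone, and the groups overlapped. The joint log2 fold change was 0.10 (edgeR adjusted p 0.816).

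The type I stress keratins exceeded their type II partners in every library. Per kb of transcript, Krt16 and Krt17 together stood at 4.47 times Krt6a and Krt6b together in DE688, 4.60 in DE685 and 3.76 in DE679. In the control the ratio was 3.82 in DE689, 2.82 in DE684 and 3.22 in DE680. DE689 was above DE679, so the groups overlapped. The mean ratio was 4.28 ± 0.455 in the knockout and 3.29 ± 0.505 in the control (SD, n = 3 each; exact two-sided permutation test, p = 0.20, where 3 against 3 allows no p below 0.10). Krt17 contributed most of the type I level, at 12.4 to 37.1 times Krt16 per kb. Of 50-base stretches, 62.0% in Krt6a and 50.1% in Krt6b were shared with other genes, against 37.6% in Krt16 and 4.0% in Krt17. The effect of this on the ratio was not tested.

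Genes known to accompany stress keratins in wounded or inflamed epidermis were examined in the same fit. Of 16 such genes, 12 were in the table and 10 were tested. In edgeR 0 passed the threshold, and at an unadjusted p under 0.05 there were 2 higher and 1 lower, against 19.0% of all genes in either direction and 9.90% as higher. The median log2 fold change was 0.12, with 5 genes above and 5 below 0. The stress keratins themselves had a median of 0.34 with 4 of 4 above 0, none past the threshold.

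Krt23 (chromosome 11, 99477974 to 99493137), a type I keratin, was the steadiest of the list. It had 14.4 CPM in DE688, 12.8 in DE685 and 13.7 in DE679, against 14.1 in DE689, 15.05 in DE684 and 15.8 in DE680. Its highest library was 1.23 times its lowest. The log2 fold change was -0.14 (SE 0.10, edgeR adjusted p 0.490), with a fold interval of 0.777 to 1.07.

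Levels can be compared between keratins per kb of transcript, with those of Krt6a, Krt6b and Krt16 uncertain because of their shared sequence. Averaged over the 6 libraries, Krt15 (978 CPM per kb), Krt79 (959) and Krt17 (919) led the list, and their ranges over libraries overlapped. Krt24 followed at 466 CPM per kb (354 to 552 over libraries) and Krt6a at 250.5 (179 to 298), each below the range of the one before. Krt16 had 44.4 CPM per kb, and Krt23 with 9.14, Krt6b with 5.74 and Krt75 with 5.40 followed. The range of Krt6b, 0.710 to 14.2, covered the ranges of Krt23 and Krt75, so the place of Krt6b between them is not firm, while Krt23 was above Krt75 in every library. Krt19 was last at 0.477 CPM per kb. The basal pair Krt5 (6284 CPM per kb) and Krt14 (6065) stood above all 10.

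**Figure D3:**
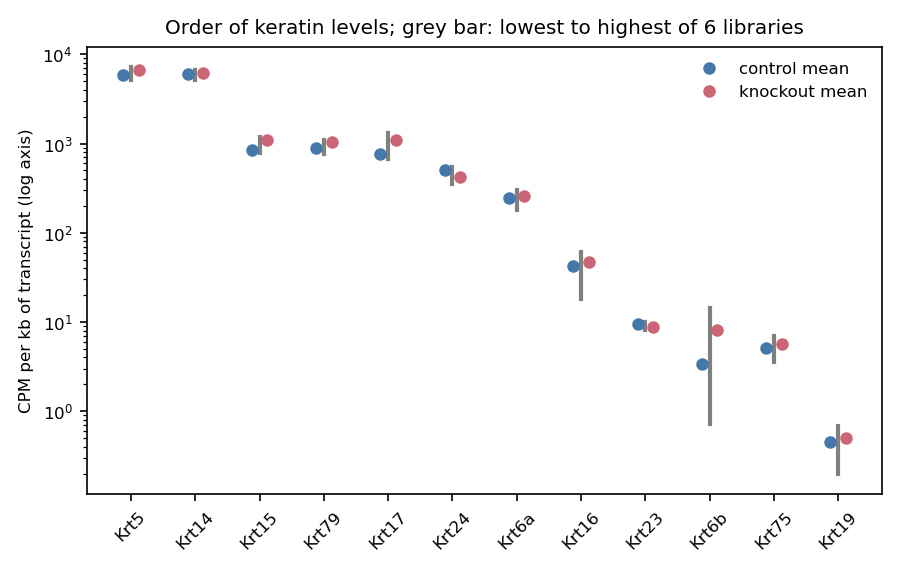
Level of each keratin in CPM per kb of transcript on a log axis, in falling order, with the control mean (blue), the knockout mean (red) and the lowest to highest of the 6 libraries (grey). Krt15, Krt79 and Krt17 are level with each other, and Krt19 lies lowest.

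The libraries did not contribute evenly. DE689 was the lowest of the 6 libraries for 7 of the 10 keratins (Krt15, Krt75, Krt79, Krt6a, Krt6b, Krt16 and Krt17), and it was also the lowest for Krt5 and Krt14. DE688 of the knockout was the highest for Krt75, Krt79, Krt6a and Krt17. Without DE689 the change of Krt75 became -0.066 and that of Krt6a -0.10 on the log2 scale, while Krt15 kept 0.33 (edgeR adjusted p 0.229) and Krt17 0.44 (edgeR adjusted p 0.302). Without DE689, the groups of 4 keratins did not overlap: Krt15 and Krt17 were above the controls, and Krt24 and Krt23 below. Without DE679 there were also 4, Krt15, Krt17 and Krt79 above and Krt24 below. Of all genes tested, 34.8% did not overlap without DE689 and 31.8% without DE679, so both counts are near the background.

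The keratins were also expressed per 1000 counts of Krt5 and Krt14, the basal keratin pair. Part of the sequence of Krt5 is shared with Krt6a and Krt6b, and part of that of Krt14 with Krt16 and Krt17. Krt5 itself averaged 14815 ± 905 (knockout) and 12799 ± 1393 (control) CPM (SD, n = 3 each), without overlap but short of the threshold (edgeR adjusted p 0.273). Per 1000 of the pair, no listed keratin was separated upward. Krt15 had 82.6 per 1000 in DE688, 80.6 in DE685 and 62.2 in DE679, against 66.1 in DE689, 66.4 in DE684 and 56.6 in DE680, so DE679 fell among the controls. Krt17 had 87.0 in DE688, 60.5 in DE685 and 54.6 in DE679, against 51.9 in DE689, 44.4 in DE684 and 56.6 in DE680, again with DE679 among the controls.

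Krt24 was separated downward relative to the basal pair, with 30.7 per 1000 in DE688, 26.1 in DE685 and 36.1 in DE679, against 39.2 in DE689, 41.4 in DE684 and 41.1 in DE680. Krt23 had 0.612 per 1000 in DE688, 0.512 in DE685 and 0.504 in DE679, against 0.705 in DE689, 0.624 in DE684 and 0.636 in DE680, also without overlap. The 2 keratins without overlap on this scale were not the 2 found in CPM. On this scale 21.5% of all genes tested did not overlap, so 2 of 10 is near the background here too.

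**Figure D4:**
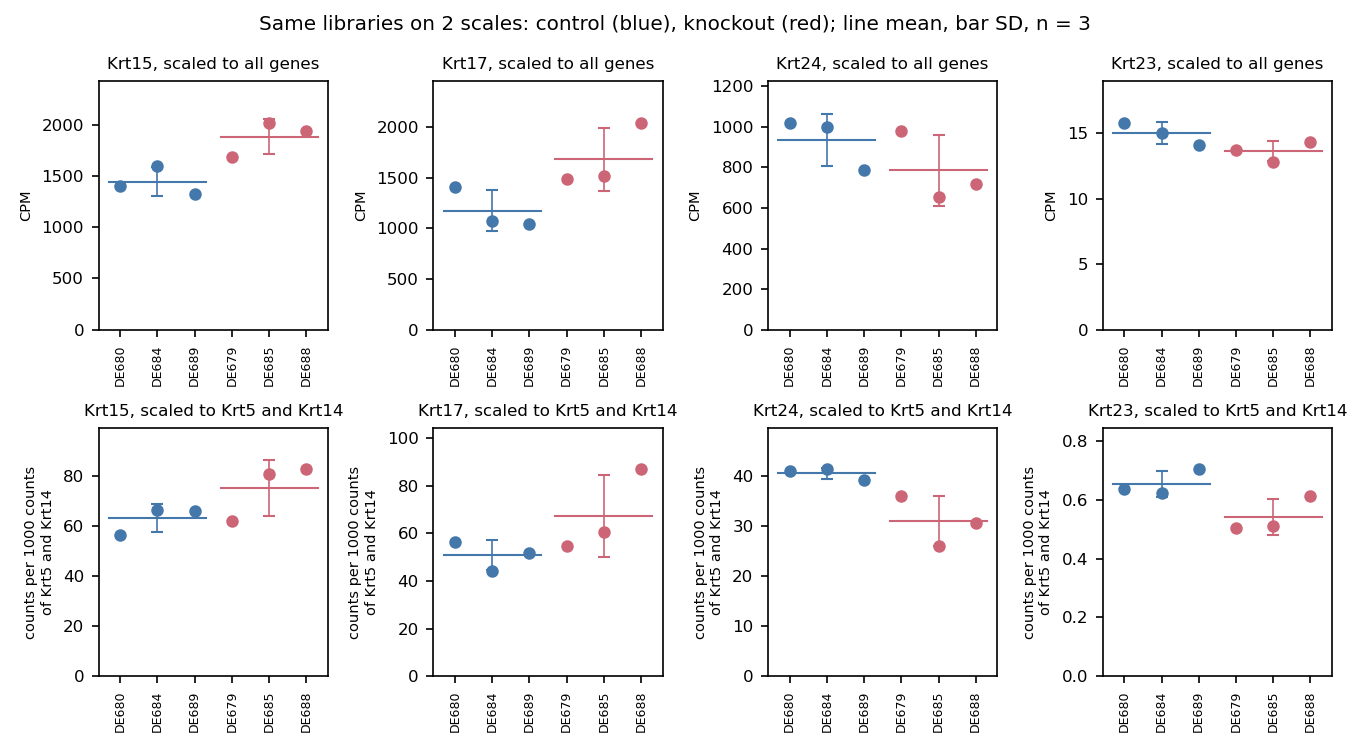
Krt15, Krt17, Krt24 and Krt23 in the same 6 libraries in CPM (top) and per 1000 counts of Krt5 and Krt14 (bottom), linear axes from 0, control in blue and knockout in red, group mean as a line and SD as a bar. Krt15 and Krt17 are separated upward in the top row, and Krt24 and Krt23 downward in the bottom row.

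The 10 keratins together held 11.3% of all keratin counts in DE688, 9.23% in DE685 and 8.78% in DE679, against 7.22% in DE689, 6.94% in DE684 and 8.01% in DE680. All 3 knockout libraries were above all 3 controls. All keratins together held 7.13% to 8.77% of a library's counts. The share also depends on the other 41 keratins, whose summed level was 61447 to 72502 CPM in the knockout and 67021 to 83720.0 CPM in the control. Of the 35 other keratins tested, 1 passed the threshold in edgeR, the suprabasal keratin Krt77 (37.2 ± 12.9 against 12.3 ± 2.697 CPM, log2 fold change 1.60, SE 0.28, adjusted p 0.0395). Their median log2 fold change was 0.019, with 19 above and 16 below 0.

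The genes whose profile over the 6 libraries was nearest to a keratin were found among 9679 genes with a mean of at least 10 CPM, by the root mean square distance of centred log2 CPM. Nearest to Krt75 was Tchh, which encodes trichohyalin, a protein of the inner root sheath, at a distance of 0.16, followed by Tubb2b at 0.19. The distances were 0.043 for Fam171a2 and 0.059 for Plod3 from Krt15, 0.030 for Pafah1b3 and 0.035 for Sugp1 from Krt79, and 0.060 for Mterf4 and 0.092 for Tpm1 from Krt6a. These profiles rest on 6 libraries and are given as a description.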

How the data were processed

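Polyadenylated RNA of tail keratinocytes, released by trypsin and dispase, was sequenced from stranded libraries, per the labels' protocols. The authors deposited estimated counts per gene, only 53.0% to 57.7% of which were whole, with no tolerance, in a library, and a normalized signal per gene. Each deposited signal value equals the estimated count times a library constant plus 0.001; these constants differed from those of TMM-scaled CPM by at most 0.330%. The submitters' processing notes name bcl2fastq 2.20, cutadapt 1.18, STAR 2.7.0f, Partek and build mm10; the role of each, the annotation and the strand setting are not given in the sources used here. Gene positions in the file matched GENCODE M21 for all 10 keratins.

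Estimated counts were rounded to whole numbers, although the test had been laid out for a count table. Genes were filtered with filterByExpr, scaled with TMM and fitted with edgeR 4.0.16 (glmQLFit, glmQLFTest), genotype being the only term. P-values were adjusted over all 15422 genes tested. The F statistic and the fitted change gave the standard errors and 95% intervals. The fit was tested on simulated data, with larger changes than those fitted for most of the listed keratins. That test does not show whether changes of their size would pass. Intervals and depths cover counting and library spread only. Columns show genotype but no sample title, so each was assigned to a group only. The keratins and gene lists were chosen with earlier results of these data known, as were the sex term, read from 4 Y-linked genes, and the tests. All 10 keratins were named whatever their values, with Gpr161, Gli1, Ptch1, Krt5 and Krt14, up to 2 genes past the threshold from each of 5 follicle, stress and interfollicular lists, and the 2 nearest genes of 4 keratins. Marker lists of 11 cell types or states were summed; those that overlapped between the groups are not described singly. Alternatives were other scaling factors, other filters, DESeq2 1.42.0, limma 3.58.1, a sex term, each library left out, Krt6a and Krt6b summed, and levels per Krt5 and Krt14. Counts of keratins without overlap on other scales were added after seeing the data.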

Additional observations from a re-analysis of the deposited data

How the results depend on the processing

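Of the 10 keratins, 0 passed in edgeR with relative log expression or upper-quartile factors, without a filter, with a mean of at least 1 CPM, in limma-voom, in limma on the authors' values and in each fit without 1 library. The exceptions were DESeq2, with 2, and the sex term, with 1. Over all genes, 247 passed, against 879 with DESeq2, 409 with the sex term and 69 to 121 with 1 library left out. The causes of these differences were not tested, and the fits without a library also have fewer samples. The number of keratins without overlap ranged from 3 to 4 with 1 library left out, where 31.8% to 39.5% of all genes tested did not overlap. Krt15, Krt17, Krt79 and Krt6b stayed positive and Krt24 and Krt23 negative in every alternative. The other 4 changed sign with a library left out: Krt19 (−0.20 without DE680, −0.074 without DE688, up to 0.59 without DE689), Krt75 (−0.056 without DE688 and −0.066 without DE689, up to 0.40 without DE684), Krt6a (−0.048 without DE688 and −0.10 without DE689, up to 0.23 without DE680) and Krt16 (−0.075 without DE679 and −0.20 without DE689, up to 0.43 without DE684). Per Krt5 and Krt14 counts, Krt19 became −0.0060 and Krt6a −0.035. None of the fits without a library passed the threshold for these 4; the Krt5 and Krt14 scale was not tested. The log2 difference in the ratio of type I to type II stress keratins was 0.39 and ranged from 0.28 to 0.50. No paired analysis was possible because the columns carry no replicate numbers. Depth limits Krt19 most, with at most 27 counts in a library.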
